A study of Mus musculus with 24 samples.

Results

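Distal H3K4me1 regions that carried H3K4me3 in Dnmt3a knockout cells (KO) and in wild-type cells (WT) were examined as candidate internal or noncoding promoters of mouse lung endothelium. H3K4me1 peaks of KO and WT were merged where they overlapped by at least 1 bp, and regions over 1000 bp from both ends of every protein-coding gene of mm10 were kept. Members were then chosen by the presence of H3K4me3: each overlaps an H3K4me3 peak in KO and one in WT by at least 1 bp. They numbered 2837 of 49071 distal regions, or 5.78%. The remaining distal regions overlapped H3K4me3 in KO only (4943 regions), in WT only (425) or in neither genotype (40866).

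Endothelial cells, which line blood vessels, of KO and WT mouse lungs were isolated by flow cytometry and profiled by ACT-seq, in which an antibody guides a Tn5 transposase to cut and tag DNA at a histone mark. The labels give the genotype only as ko or wt in a series on DNMT3A, an enzyme that methylates DNA de novo, and the sources used here state neither the age of the mice nor the cells in which the gene was deleted. The labels name 24 samples, 3 for each of 4 marks in KO and in WT, and 1 list of peaks was deposited for each of these 8 groups. Each comparison of genotypes below is therefore a comparison of 2 lists, with no spread between replicates, no peak height and no depth, and no test between genotypes was run.

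Of 25 pan-endothelial genes, 22 in KO and 22 in WT had H3K4me3 at a gene end. The same held for 3 of 20 leukocyte markers in KO and 2 in WT, 6 of 20 lung epithelial markers in KO and 2 in WT, and 6 of 20 mural and fibroblast markers in KO and 1 in WT, so more markers of other cell types carried the mark in the KO list. Over all protein-coding genes, 52.3% carried it in KO and 46.1% in WT. The part of these cell types in the results below was not tested.

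H3K4me3 is found where transcription starts, most often over DNA that is rich in CpG dinucleotides and free of methylation, whereas H3K4me1 is found at enhancers and on the flanks of promoters. Many genes have more than one promoter, and a promoter inside the span of a gene can make a shorter transcript or be the one that a given cell type uses. H3K27ac accompanies active promoters and enhancers, H3K27me3 is laid down by Polycomb at silent genes, and DNMT3A binds poorly to histone H3 that is methylated at lysine 4.

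The promoter windows of 6 genes whose annotated start lies inside a member are printed to show the range of sequence found there. Each window runs from 250 bases before to 50 bases after the start of transcription, is taken from RefSeq for GRCm38.p6 (mm10), reads 5′ to 3′ along the gene, and has its CpG dinucleotides in capitals. Axin2 (feedback inhibitor of Wnt signalling, chr11:108920099-108920398, plus strand), App (amyloid precursor protein, chr16:85173658-85173957, minus strand) and Slit2 (secreted guidance cue, chr5:47982905-47983204, plus strand) are among the 8 named genes with the widest H3K4me3 at a start inside a member. Runx1 (transcription factor needed for blood formation from endothelium, chr16:92697280-92697579, minus strand), Erg (ETS-family transcription factor that maintains endothelial identity, chr16:95459299-95459598, minus strand) and Egfl7 (protein secreted by endothelial cells, chr2:26583615-26583914, plus strand) were added after their values were seen.
Axin2: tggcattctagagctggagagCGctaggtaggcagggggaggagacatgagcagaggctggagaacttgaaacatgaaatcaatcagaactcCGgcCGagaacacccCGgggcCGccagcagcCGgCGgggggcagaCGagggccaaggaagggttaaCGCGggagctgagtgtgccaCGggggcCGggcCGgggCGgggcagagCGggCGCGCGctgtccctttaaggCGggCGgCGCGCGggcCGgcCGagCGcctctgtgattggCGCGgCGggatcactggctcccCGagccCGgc
App: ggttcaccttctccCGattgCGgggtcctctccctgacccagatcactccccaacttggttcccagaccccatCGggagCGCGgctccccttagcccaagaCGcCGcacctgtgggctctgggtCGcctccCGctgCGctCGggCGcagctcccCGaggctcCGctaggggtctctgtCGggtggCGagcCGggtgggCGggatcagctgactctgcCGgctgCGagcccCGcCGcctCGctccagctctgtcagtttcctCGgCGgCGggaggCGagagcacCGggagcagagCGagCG
Slit2: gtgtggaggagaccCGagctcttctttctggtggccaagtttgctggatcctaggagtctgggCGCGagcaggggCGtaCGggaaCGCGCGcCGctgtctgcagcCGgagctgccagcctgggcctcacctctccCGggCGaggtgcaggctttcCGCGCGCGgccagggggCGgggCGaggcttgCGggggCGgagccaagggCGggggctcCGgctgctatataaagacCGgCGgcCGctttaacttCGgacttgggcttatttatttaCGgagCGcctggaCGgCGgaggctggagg
Runx1: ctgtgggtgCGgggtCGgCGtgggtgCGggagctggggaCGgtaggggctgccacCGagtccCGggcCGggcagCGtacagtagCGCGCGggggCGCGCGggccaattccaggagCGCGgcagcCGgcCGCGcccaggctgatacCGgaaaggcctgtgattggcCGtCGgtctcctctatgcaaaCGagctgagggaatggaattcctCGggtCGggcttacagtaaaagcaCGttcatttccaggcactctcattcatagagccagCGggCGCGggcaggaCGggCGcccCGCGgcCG
Erg: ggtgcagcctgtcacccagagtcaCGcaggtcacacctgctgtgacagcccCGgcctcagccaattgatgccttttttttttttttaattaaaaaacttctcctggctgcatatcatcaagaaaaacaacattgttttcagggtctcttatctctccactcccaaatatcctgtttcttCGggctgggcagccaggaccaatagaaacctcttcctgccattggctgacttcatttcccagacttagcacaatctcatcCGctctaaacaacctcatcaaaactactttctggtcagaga
Egfl7: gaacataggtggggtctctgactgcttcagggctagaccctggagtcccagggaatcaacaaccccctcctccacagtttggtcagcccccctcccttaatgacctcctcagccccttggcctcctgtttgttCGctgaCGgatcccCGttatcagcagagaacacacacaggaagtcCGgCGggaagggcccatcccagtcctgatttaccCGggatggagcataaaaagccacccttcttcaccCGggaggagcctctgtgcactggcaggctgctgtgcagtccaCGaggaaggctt

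The windows of Axin2, App, Slit2 and Runx1 hold 31, 30, 30 and 35 CpG dinucleotides in 300 bases. Those of Erg and Egfl7 hold 4 and 8. The printed windows thus cover both CpG-rich and CpG-poor starts.

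The first comparison asked what the gene annotation places at the members. Starts were taken from RefSeq's promoter windows, which hold none on chromosome 18, so shares that use starts cover the 2735 members on the other chromosomes. An annotated protein-coding start over 1000 bp from every gene end, called an internal start here, lay within 1000 bp of 866 members, or 31.7% (29.9 to 33.4). Over all distal regions the share was 3.24%. It was 4.35% for regions with H3K4me3 in KO only, 4.36% in WT only and 1.11% in neither. Here and below, ranges in brackets after a share are exact Clopper-Pearson intervals at 95% that treat regions as independent and cover counting error only.

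**Figure D1:**
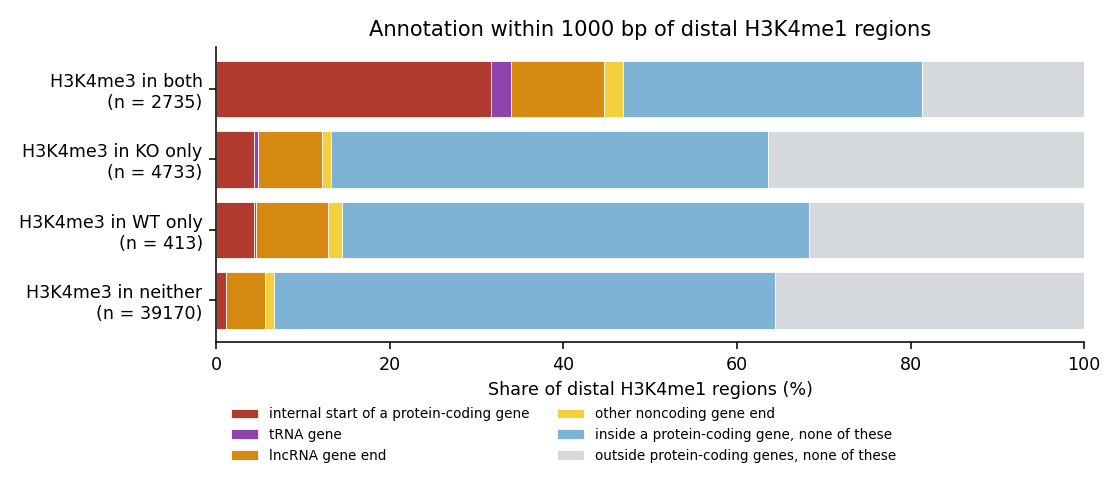
Stacked bars give the share (%) of distal H3K4me1 regions in each annotation class, counted in the order of the legend, for regions with H3K4me3 in both genotypes, in KO only, in WT only and in neither, chromosome 18 left out. Internal starts of protein-coding genes make up 31.7% of the regions with H3K4me3 in both genotypes, against 1.11% of those with H3K4me3 in neither.

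Of the members without an internal start nearby, 62 lay within 1000 bp of a tRNA gene, 295 of an end of a long noncoding RNA (lncRNA) gene and 59 of an end of another noncoding gene. For 941 members inside a protein-coding gene (34.4%) and 512 outside (18.7%), none of these annotations lay within 1000 bp. An annotated internal start or noncoding gene thus stood beside 46.9% of the members, and the label of candidate promoters rests on the marks alone for the rest.

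Members lay inside protein-coding genes more often than the remaining distal regions did and closer to gene ends. Of the members, 70.4% (68.6 to 72.0) were inside a gene, against 60.9% of all distal regions. The share was 57.3% of regions with H3K4me3 in KO only, 62.1% in WT only and 60.7% in neither. It was 65.7% for members over 2000 bp from gene ends and 61.3% for members over 5000 bp from them. The other distal regions were not counted at these distances. The median distance to the nearest gene end was 8271 bp for members, 20301 bp with H3K4me3 in KO only and 30013 bp with H3K4me3 in neither. Among the 1576 members inside a single gene with a known strand, 51.6% (49.1 to 54.1) lay in the first quartile of the gene's length and 9.84% in the last, against 28.7% and 18.8% for regions with H3K4me3 in neither genotype. Exons and introns were not separated, because no exon annotation was used here.

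At some members the H3K4me3 peak lay close to a gene end. The H3K4me3 peak came within 1000 bp of a gene end at 211 members in KO, 158 in WT and 226 (7.97%) in at least 1 genotype. Tsc22d2, which encodes a leucine zipper protein, held 2 such members under a single peak of 3098 bp in KO and 3263 bp in WT. The gene of Cdk6, a kinase that drives entry into the cell cycle, held a member at chr5:3344440-3344628 under a peak of 3168 bp in KO and 2823 bp in WT. Without these 226 members, an internal start lay near 30.7% of the rest.

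Around the threshold of 1000 bp, the members nearest to it were at Mta1, E2f5 and Pik3c2a, each 1002 bp from a gene end. Their widest H3K4me3 peaks measured 1592, 441 and 434 bp in KO and 247, 306 and 285 bp in WT. The nearest regions that missed the threshold and had H3K4me3 in both genotypes were at Adora2a, Fbn2 and Ednrb, 999, 998 and 997 bp from an end, with H3K4me3 peaks of 1406, 1184 and 755 bp in KO and 1118, 218 and 302 bp in WT.

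The marks at internal starts were set beside those at outer gene ends, both sets having H3K4me3 in KO and in WT by choice. At 754 internal starts at members, H3K4me3 covered the start in 94.2% of cases in KO and 87.7% in WT. H3K27ac covered 87.4% in KO and 90.5% in WT. H3K4me3 leaned into the gene, since 500 bp after the start it covered 54.0% in KO and 42.6% in WT, and 500 bp before it 22.8% in KO and 18.2% in WT. The 4092 starts at outer gene ends that had H3K4me3 in both genotypes gave similar values at the start, with 94.4% in KO and 88.5% in WT for H3K4me3, and 84.95% in KO and 88.2% in WT for H3K27ac.

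**Figure D2:**
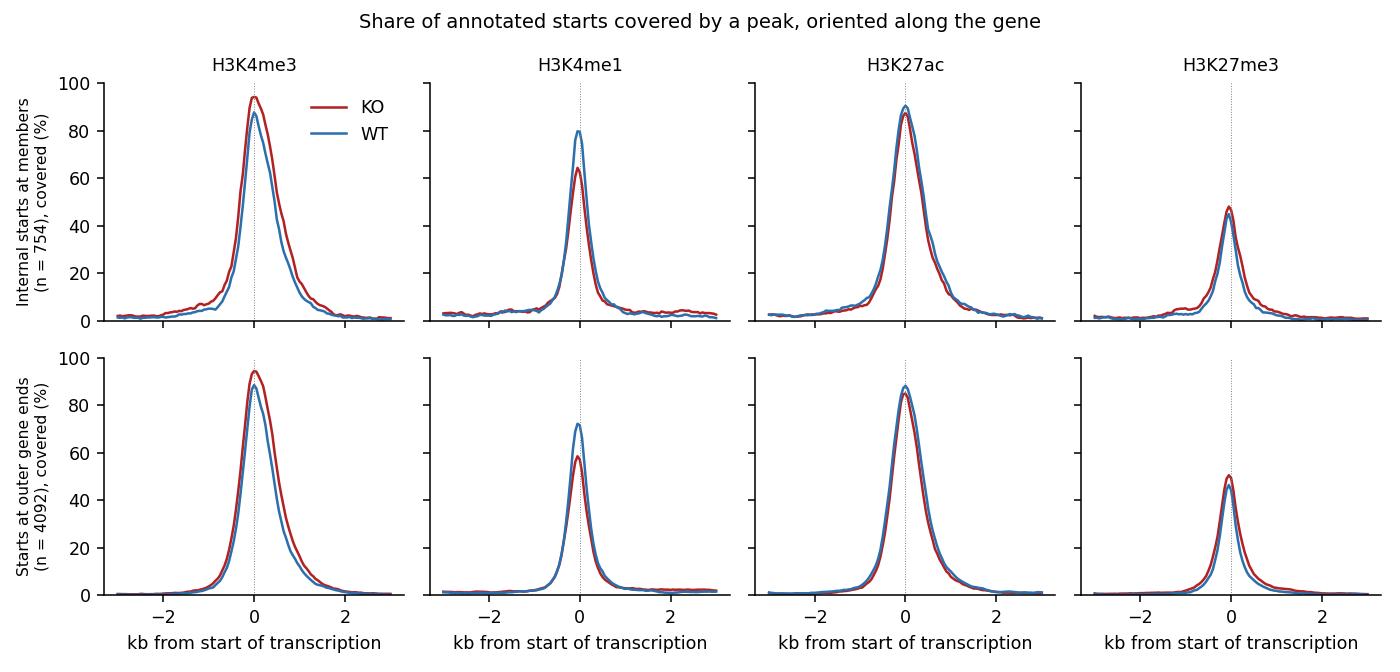
Each panel plots the share (%) of annotated starts covered by a peak of the mark against the distance from the start of transcription (kb, along the gene), in KO (red) and WT (blue), for internal starts at members (upper row, n = 754) and starts at outer gene ends with H3K4me3 in both genotypes (lower row, n = 4092). H3K4me3 and H3K27ac are highest at the start and the other marks 50 bp before it, and H3K4me1 covers the internal starts in 62.5% of cases in KO against 79.4% in WT.

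An internal start is not always an alternative one. Of the 3708 internal starts in the annotation, 1290 (34.8%) had H3K4me3 within 1000 bp in both genotypes, 280 in KO only and 26 in WT only, and 886 lay within 1000 bp of a member. The 886 starts belonged to 726 genes. For 471 of these genes, or 64.9%, every listed start lay over 1000 bp inside the outer 5′ end of the gene, and at 363 of the 471 no H3K4me3 peak was listed within 1000 bp of that outer end in either genotype. In those genes the annotated span reaches beyond the listed start, and the member is where H3K4me3 was listed. The other 255 genes had another listed start at the outer 5′ end, which carried H3K4me3 in both genotypes in 110 genes, in KO only in 18, in WT only in 4 and in neither in 123.

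Sequence entered no part of the rule, and the windows of starts inside members were rich in CpG. The 699 protein-coding starts inside members had a median of 22 CpG dinucleotides per 300 bases and a median GC content of 63.0%, and 74.8% of them held at least 15. The 2112 internal starts without H3K4me3 within 1000 bp in either genotype had a median of 5 and a GC content of 50.7%, and 10.4% held at least 15. Starts at outer gene ends with H3K4me3 in both genotypes also had a median of 22 CpG. CpG content was thus higher at starts with H3K4me3 than at starts without it, both inside genes and at their ends.

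**Figure D3:**
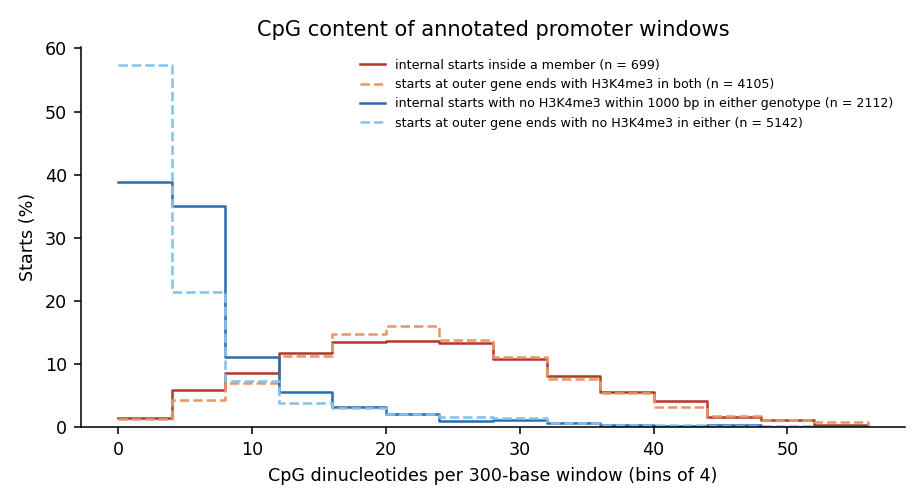
Lines give the share (%) of annotated starts in each bin of CpG dinucleotides per 300-base window, for internal starts inside a member and starts at outer gene ends with H3K4me3 in both genotypes, each beside starts of the same kind without H3K4me3. Both sets with H3K4me3 have a median of 22, and the sets without it have medians of 5 inside genes and 3 at outer ends.

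Short motifs in the windows, on both strands, were counted in the same sets. GGGCGG, the GC box bound by Sp and Klf factors, was present in 69.0% of windows of starts inside members and in 20.5% of internal starts without H3K4me3, against 35.98% of all windows. CCGGAAGT, an ETS-type site, was present in 7.58% and 0.852% of these sets and in 3.95% of all windows. TATAAA was present in 4.43% and 14.5%, and in 13.6% of all windows. Starts at outer gene ends with H3K4me3 in both genotypes held GGGCGG at 69.6%, CCGGAAGT at 9.38% and TATAAA at 7.2%. CCAAT was present in 39.3% of windows of starts inside members and in 35.7% of internal starts without H3K4me3. For TGAGTCA, an AP-1 site, the shares in these sets were 4.86% and 6.39%. A motif match describes letters in the window and not a bound site, and GGGCGG and CCGGAAGT each contain a CpG.

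The next comparison asked which other marks the members carried, since H3K27ac and H3K27me3 were not used to choose them. H3K27ac overlapped 94.0% (93.0 to 94.8) of members in KO and 94.8% (93.9 to 95.6) in WT. Over all distal regions the shares were 47.5% in KO and 50.4% in WT. Regions with H3K4me3 in KO only carried H3K27ac at 84.3% in KO and 84.95% in WT, those with H3K4me3 in WT only at 72.9% in KO and 74.8% in WT, and those with neither at 39.5% in KO and 42.9% in WT. H3K27ac was listed in both genotypes at 2612 members, or 92.1% against 38.8% of all distal regions. It was listed in KO only at 54 members (1.90%, against 8.68% of all distal regions) and in WT only at 77 (2.71%, against 11.6%).

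H3K27me3 overlapped 53.4% (51.55 to 55.25) of members in KO and 50.7% (48.8 to 52.5) in WT. Over all distal regions the shares were 10.4% in KO and 9.01% in WT, and over regions with H3K4me3 in neither genotype 5.07% in KO and 3.95% in WT. The mark was listed in both genotypes at 1248 members, or 44.0% against 7.1% of all distal regions, in KO only at 267 (9.41% against 3.25%) and in WT only at 190 (6.70% against 1.9%). With equal numbers of the widest peaks of each mark, which also changed the members to 2552, the order of the genotypes turned: H3K27me3 overlapped 44.5% of members in KO and 53.5% in WT, and H3K27ac 94.4% in KO and 93.5% in WT. The KO list of H3K27me3 held 31022 peaks and the WT list 20918, and the lists of H3K27ac held 44484 in KO and 81112 in WT.

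The 7407 H3K4me1 regions within 1000 bp of a gene end that had H3K4me3 in both genotypes carried both marks more often than the members. They overlapped H3K27ac at 95.1% in KO and 96.9% in WT, and H3K27me3 at 63.6% in KO and 59.6% in WT.

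**Figure D4:**
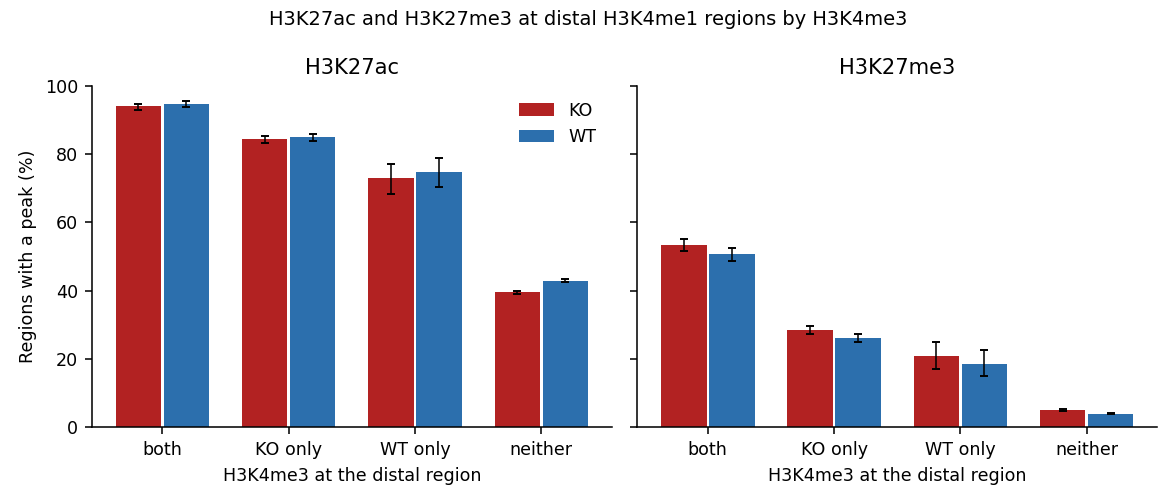
Bars give the share (%) of distal H3K4me1 regions with an H3K27ac or H3K27me3 peak in KO (red) and in WT (blue), by whether H3K4me3 was listed in both genotypes, in KO only, in WT only or in neither, with exact 95% intervals as error bars. Regions with H3K4me3 in both genotypes stand highest of the 4 distal sets for both marks, at 94.0% in KO and 94.8% in WT for H3K27ac and 53.4% in KO and 50.7% in WT for H3K27me3.

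Where H3K27me3 lay on a member with H3K27ac, it was mostly narrow. Of the 2743 members with H3K27ac in at least 1 genotype, 1453 carried H3K27me3 in KO and 1379 in WT, and 1105 carried none in either. Among those with a peak, the median width of the widest was 482 bp in KO and 400 bp in WT, and it reached 1000 bp at 178 members (12.25%) in KO and 101 (7.32%) in WT. Lists from pooled cells cannot tell one nucleosome with both marks from a mix of cells or alleles. What gave rise to the narrow H3K27me3 peaks, and whether they mark Polycomb at these members, was not tested. Of the 94 members without H3K27ac in either genotype, 62 carried H3K27me3 in KO and 59 in WT, and 27 carried none in either. Among those with a peak, the median width was 1481 bp in KO and 1077 bp in WT, and it reached 1000 bp at 46 members (74.2%) in KO and 30 (50.85%) in WT.

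The widest H3K4me3 among members without H3K27ac lay in Dpysl3, Kbtbd11, Bmp2, Prdm16 and Cachd1. The gene of the signalling ligand Bmp2 held such a member at chr2:133553327-133553422, with H3K4me3 of 1581 bp in KO and 1507 bp in WT and H3K27me3 of 2992 bp in KO and 1507 bp in WT. Kbtbd11, a BTB and kelch domain gene, had H3K4me3 of 1772 bp in KO and 1375 bp in WT and H3K27me3 of 1922 bp in KO and 1437 bp in WT. Cachd1 had H3K4me3 of 1560 bp in KO and 1194 bp in WT and H3K27me3 of 1777 bp in KO and 1842 bp in WT. Prdm16, a zinc finger regulator of cell fate, had H3K4me3 of 1258 bp in KO and 1569 bp in WT, and H3K27me3 of 1216 bp in KO and none in WT. Dpysl3, a neuronal cytoskeleton gene, was the exception among these 5, with H3K4me3 of 1709 bp in KO and 1551 bp in WT and no H3K27me3 in either. At Bmp2, Prdm16 and Cachd1 the H3K4me3 peak came within 1000 bp of a gene end in KO, in WT or in both.

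The widest H3K27me3 at members was listed at a ribosomal RNA copy and at 4 other regions. The pseudogene Rn18s-rs5 at chr17:39843119-39846665 had peaks of all marks, with H3K27me3 of 3617 bp in KO and 3660 bp in WT and H3K4me3 of 3296 bp in KO and 1942 bp in WT. Near-identical copies of ribosomal RNA genes share reads, so its values are uncertain. Erbb4, a receptor tyrosine kinase, had H3K27me3 of 4415 bp in KO and 2126 bp in WT over narrow H3K4me3 peaks. The H3K4me3 peaks measured 104 bp in KO and 310 bp in WT and did not overlap each other. Pcdh7, a protocadherin, had H3K27me3 of 4175 bp in KO and 306 bp in WT. Fam155a had 3454 bp in KO and 799 bp in WT, and a region nearest to Irx2, a homeobox gene, had 3572 bp in KO and 2315 bp in WT. At these 4 the H3K27me3 peak was wider in the KO list, and none carried H3K27ac in either genotype. At Fam155a the H3K4me3 peak came within 1000 bp of a gene end in KO, in WT or in both.

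H3K4me3 and H3K4me1 chose the members, so their widths are given as a description. The widest H3K4me3 peak on a member had a median of 674 bp in KO, from 101 to 3296 bp, and of 481 bp in WT, from 121 to 3263 bp. Per member, the KO over WT ratio of summed H3K4me3 width had a median of 1.25, and KO was wider at 2111 members (74.4%). Over all peaks of the lists the order was the reverse, with a median H3K4me3 width of 431 bp in KO and 506 bp in WT. At protein-coding gene ends with H3K4me3 in both genotypes the median ratio was 1.16. KO was wider at 74.0% of those, close to the share at members, and with H3K4me3 peaks of at least 500 bp alone the median ratio at members was 1.12. H3K4me1 had a median ratio of 1.06 at members and 0.954 at gene ends, and H3K27ac 0.949 and 0.920.

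H3K4me1 was listed less often in KO than in WT at members, which was not so over all distal regions. It overlapped 2364 members (83.3%) in KO and 2708 (95.5%) in WT, against 81.6% in KO and 77.9% in WT of all distal regions. It was listed in WT only at 473 members (16.7%, against 18.4% of all distal regions) and in KO only at 129 (4.55%, against 22.1%). At members near an internal start the shares were 74.7% in KO and 95.4% in WT, and at members outside genes with no annotation nearby 93.2% in KO and 98.1% in WT. Starts at outer gene ends showed the same order, with H3K4me1 over the start in 57.2% of cases in KO and 71.6% in WT.

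Both marks entered the choice of members, so the following is also a description. Over quintiles of mean H3K4me3 width, from a median of 270 bp to one of 1233 bp, H3K4me1 was listed in KO at 90.7, 89.6, 84.7, 78.0 and 73.8% of members, and in WT at 97.2, 97.0, 96.8, 94.5 and 91.7%. The share near an internal start went up over the same quintiles, at 7.80, 15.7, 31.8, 48.9 and 54.3%. The 473 members with H3K4me1 in WT only had median H3K4me3 of 861 bp in KO and 667 bp in WT, and the 2235 with H3K4me1 in both genotypes 626 bp in KO and 445 bp in WT. The 129 with H3K4me1 in KO only had 966 bp in KO and 590 bp in WT, so members with H3K4me1 in a single genotype, whichever it was, had wider median H3K4me3 than those with it in both.

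**Figure D5:**
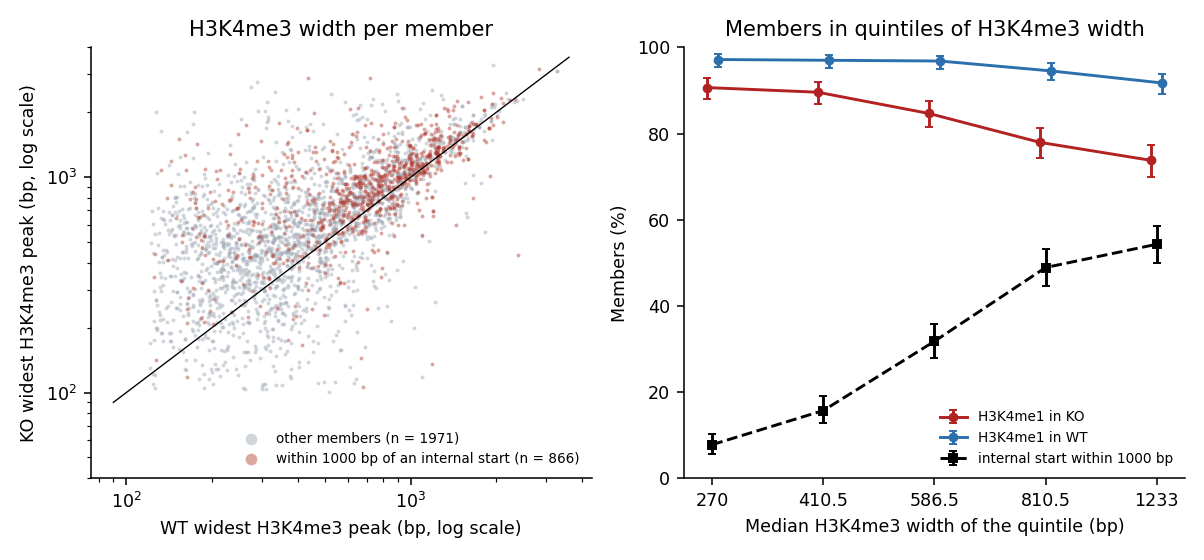
The left panel plots the widest H3K4me3 peak of each member in KO against WT (bp, log axes), with members within 1000 bp of an internal start in red and all others, including 102 on chromosome 18 where no start was available, in grey; the line marks equal width and 74.4% of members have the larger summed width in KO. The right panel gives the share (%) of members with H3K4me1 in KO and WT and with an internal start nearby, with exact 95% intervals, by quintile of H3K4me3 width, where H3K4me1 in KO goes from 90.7 to 73.8% as internal starts go from 7.80 to 54.3%.

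The extremes of the H3K4me3 ratio were narrow peaks in one list beside wide ones in the other. Bbc3, a pro-apoptotic BH3-only gene, held 2 members under a KO peak of 1995 bp that met WT peaks of 173 and 127 bp. Zfhx4, a zinc finger homeobox gene, had 1634 bp in KO and 132 bp in WT. A second member in Dpysl3 had 1624 bp in KO and 163 bp in WT, and Mras, a Ras-family GTPase, 1755 bp in KO and 172 bp in WT. At Zfhx4, Mras and this member of Dpysl3 the H3K4me3 peak came within 1000 bp of a gene end in KO, in WT or in both. The narrower H3K4me3 was listed in KO at Septin4, a cytoskeletal GTPase, with 136 bp in KO and 1185 bp in WT. The same order held at Carns1, carnosine synthase, with 116 bp in KO and 644 bp in WT. The KO and WT peaks at Septin4 did not overlap each other, so its ratio compares different peaks of the region. Pecam1, the endothelial adhesion molecule CD31, held a member at chr11:106674508-106675436 with 111 bp in KO and 630 bp in WT, while its H3K4me1 measured 920 bp in KO and 709 bp in WT and its H3K27ac 705 bp in KO and 810 bp in WT.

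The next question was which genes held members. Of 20665 protein-coding genes, 1646 (7.97%) held at least 1 member, 244 held 2 and 63 held 3 or more. Long genes held members more often, at 1.65% of genes up to 10 kb and 27.4% of genes over 300 kb, and the median length was 58030 bp for genes with a member and 17491 bp for all. A list of 36 endothelial transcription factors had members in 19, or 52.8%, and their median length was 43861 bp. Within the 12 listed factors of 100 to 300 kb, 10 held a member, against 21.7% of all genes of that length. As background to these counts, the lists were drawn up with earlier results of these data known.

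Among endothelial transcription factors, several had their H3K4me3 at a member and none at either gene end. Lmo2, a partner of Tal1 in blood and endothelial transcription complexes, had H3K4me3 of 1633 bp in KO and 1805 bp in WT at the member chr2:103969367-103969641, and H3K27ac of 1688 bp in KO and 1850 bp in WT. Fli1, an ETS factor, held 2 members, at chr9:32541492-32541877 with H3K4me3 of 1902 bp in KO and 314 bp in WT, and at chr9:32506046-32506768 with 606 bp in KO and 392 bp in WT. Ets1, the neighbouring ETS gene, held 2, with H3K4me3 of 587 bp each in KO and 362 and 326 bp in WT. None of these 3 genes had H3K4me3 within 1000 bp of a gene end in either genotype.

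The start of Erg printed above lies in the member chr16:95459333-95459859, with H3K4me3 of 1078 bp in KO and 876 bp in WT and no H3K27me3 in either. A second member of Erg, at chr16:95438661-95439721, had 634 bp in KO and 718 bp in WT. At an end of Erg, H3K4me3 was listed in KO and not in WT. The start of Runx1 lies in the member chr16:92697230-92697707, with H3K4me3 of 643 bp in KO and 532 bp in WT, and neither genotype had H3K4me3 at an end of the gene.

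Other listed factors held members with or without H3K4me3 at a gene end. Rbpj, the DNA-binding partner of Notch, had 2 members near internal starts, with H3K4me3 of 989 and 629 bp in KO and 958 and 702 bp in WT. Mef2a, a MADS-box factor, had 1476 bp in KO and 979 bp in WT at a start, and Gata2, a zinc finger factor of endothelium and blood, 989 bp in KO and 821 bp in WT. Foxp1, a forkhead factor, held 3 members, of which the one at an internal start had 1010 bp in KO and 1895 bp in WT. Sox17, needed for arterial fate, had 2223 bp in KO and 2303 bp in WT, in peaks within 1000 bp of a gene end. Tal1, a basic helix-loop-helix factor, had 621 bp in KO and 258 bp in WT. Runx1, Ets1, Gata2 and Tal1 belong to the list but are named here after their values were seen.

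Of the 25 pan-endothelial genes, 7 (28.0%) held a member, against 7.97% of all protein-coding genes. Their median length was 23413 bp, and that of all protein-coding genes 17491 bp. Egfl7 had its member at the start printed above, chr2:26583572-26584234, with H3K4me3 of 892 bp in KO and 909 bp in WT, and H3K27me3 of 409 bp in KO and none in WT. Tek, the angiopoietin receptor TIE2, held 2 members, with H3K4me3 of 503 and 454 bp in KO and 429 and 401 bp in WT. Ptprb, the phosphatase VE-PTP that acts on TIE2, had 1353 bp in KO and 1219 bp in WT. The adhesion genes Esam and Icam2 had 1178 and 1045 bp in KO and 815 and 430 bp in WT. Cd34, a sialomucin, had 1736 bp in KO and 911 bp in WT, in peaks within 1000 bp of a gene end. H3K4me3 was wider in KO at all of these except Egfl7 and Pecam1.

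Members were also counted in the lists of subtypes of lung vessel. Of 17 arterial genes 5 held a member (29.4%), and of 14 venous and lymphatic genes 3 (21.4%). Of 14 genes of aerocytes (capillary cells specialised for gas exchange) 4 held one (28.6%), and of 15 genes of general capillary cells 1 (6.67%). The share of all protein-coding genes was 7.97%, so general capillary genes did not exceed it. Their median length was 79547 bp, and 12.2% of all genes of 30 to 100 kb held a member. Differences between these short lists were not tested. The arterial members were at Sox17, Cxcr4, Jag1, Hey1 and Notch1. Cxcr4, a chemokine receptor, had H3K4me3 of 2090 bp in KO and 944 bp in WT. Jag1, a Notch ligand, had 1378 bp in KO and 1519 bp in WT, and the Notch1 receptor 227 bp in KO and 211 bp in WT. The peaks at Cxcr4 and Jag1, like that at Sox17, came within 1000 bp of a gene end in KO, in WT or in both. Sirpa, an inhibitory receptor in the aerocyte list, had no H3K27ac at its member and H3K27me3 of 2503 bp in KO and 196 bp in WT.

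Of the markers of other cell types, 3 of 20 leukocyte, 1 of 20 lung epithelial and 0 of 20 mural and fibroblast genes held a member. Over all protein-coding genes the share was 7.97%, and differences between such short lists were not tested. Ikzf1, a lymphoid zinc finger factor, carried H3K27me3 of 3060 bp in KO and 2316 bp in WT at its member, with H3K4me3 of 320 bp in KO and 257 bp in WT. Gata3, a T cell factor, held 2 members near internal starts with H3K4me3 of 788 and 520 bp in KO and 769 and 508 bp in WT.

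Among signalling genes, 6 of 21 BMP and TGF-beta genes and 13 of 30 guidance and small GTPase genes held a member, against 7.97% of all protein-coding genes. The median length of the guidance and GTPase genes was 172503 bp, and 21.7% of all genes of 100 to 300 kb held a member. Acvrl1, the endothelial BMP receptor ALK1, had H3K4me3 of 715 bp in KO and 568 bp in WT, and Smad7, an inhibitor of the pathway, held 2 members with 684 and 511 bp in KO and 651 and 595 bp in WT. Slit2 held 2 members, the first over the start printed above with H3K4me3 of 2894 bp in KO and 717 bp in WT. That region was also covered by H3K27me3 of 3253 bp in KO and 2549 bp in WT, and carried H3K27ac of 685 bp in KO and 639 bp in WT. Its receptor gene Robo1 had H3K4me3 of 1206 bp in KO and 1531 bp in WT and H3K27me3 of 1441 bp in KO and 1541 bp in WT at an internal start. The ligand and the receptor gene thus each carried H3K4me3, H3K27me3 and H3K27ac at the member in both genotypes.

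Of 42 genes listed for alternative internal promoters in mouse tissues, 30 (71.4%) held a member, against 7.97% of all protein-coding genes. The median length of the 42 was 290248 bp, and 21.7% of all genes of 100 to 300 kb and 27.4% of longer genes held a member. Camk2d, a calcium-dependent kinase, held 3, of which the one at its start had H3K4me3 of 2230 bp in KO and 1588 bp in WT. The peak at that start came within 1000 bp of a gene end in KO, in WT or in both. Auts2, a gene of neural development, held 2 under a shared peak of 1819 bp in KO and 1916 bp in WT. Ppargc1a, a coactivator of mitochondrial genes, had 1280 bp in KO and 1430 bp in WT, and Nr3c1, the glucocorticoid receptor, 1768 bp in KO and 1665 bp in WT.

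Genes of DNA methylation and chromatin held members in 11 of 30 cases (36.7%), against 7.97% of all protein-coding genes. The median length of the list was 56797 bp, and 12.2% of all genes of 30 to 100 kb held a member. Dnmt3a itself held 3, all near annotated internal starts, with no H3K4me3 within 1000 bp of either gene end. At chr12:3807990-3808795 H3K4me3 measured 1426 bp in KO and 1426 bp in WT, at chr12:3806352-3806497 it measured 699 bp in KO and 555 bp in WT, and at chr12:3891254-3891595 it measured 655 bp in KO and 182 bp in WT. The deleted stretch is not stated in the sources used here, so these peaks do not check the genotype. Dnmt1, the maintenance methyltransferase, had 827 bp in KO and 708 bp in WT at an internal start, and Tet1, which oxidises methylcytosine, 604 bp in KO and 713 bp in WT.

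Imprinted genes, whose expression depends on the parent of origin and on DNA methylation, held or lay beside a member in 12 of 37 cases. Of the 28 protein-coding genes in this list 9 held a member, against 7.97% of all protein-coding genes. Gnas, which encodes a G protein subunit and has several imprinted promoters, held 4 members. Of these, 2 shared an H3K4me3 peak of 1567 bp in KO and 1469 bp in WT, the third had 1061 bp in KO and 943 bp in WT, and the one beside the antisense gene Gnasas1 had 421 bp in KO and 479 bp in WT with no H3K27ac. Impact held 3 members, 2 of them under a peak of 1522 bp in KO and 1371 bp in WT. The member at the lncRNA Kcnq1ot1, which silences neighbouring genes on the paternal chromosome, had 393 bp in KO and 642 bp in WT. Alleles cannot be told apart in these lists.

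Noncoding genes lay beside members more often than beside the remaining distal regions. An end of a noncoding gene was within 1000 bp of 19.6% (18.15 to 21.1) of members, against 6.79% of all distal regions, and lncRNA genes alone were near 15.7% against 5.53%. Of 70 genes in a list drawn up for lncRNA, 19 (27.1%) held a member or lay within 1000 bp of one, against 4.71% of all annotated lncRNA genes. The annotation gives 3 of the 70 as protein-coding, of which 0 held a member, and Rn7sk, 1 of the 19, as a small nuclear RNA. Snhg8, a snoRNA host gene, had H3K4me3 of 1303 bp in KO and 903 bp in WT, Chaserr, which regulates its neighbour Chd2, 1368 bp in KO and 664 bp in WT, and Mir22hg, the host of a microRNA, 1015 bp in KO and 585 bp in WT. Oip5os1, also known as Cyrano, had 795 bp in KO and 734 bp in WT. All of these carried H3K27ac in both genotypes, whereas the member at Pvt1 had none, with H3K4me3 of 936 bp in KO and 574 bp in WT and H3K27me3 of 1410 bp in KO and none in WT.

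Transfer RNA genes, transcribed by RNA polymerase III, stood near 2.22% of members, against 0.202% of all distal regions. Of 391 tRNA genes in the annotation, 87 (22.3%) lay within 1000 bp of a member. H3K4me3 within 1000 bp was listed in both genotypes at 149 tRNA genes, in KO only at 44, in WT only at 4 and in neither at 194. The member with the widest mean H3K4me3, beside n-TPtgg5, n-TTtgt1 and n-TYgta10 at chr14:51088647-51089832, had 2537 bp in KO and 1184 bp in WT. The H3K4me3 peak there also came within 1000 bp of a protein-coding gene end in KO, in WT or in both. A pair of members on chromosome 11 beside n-TPtgg4 and n-TVaac7 shared a peak of 2134 bp in KO and 1512 bp in WT. H3K27me3 overlapped 75.8% (63.3 to 85.8) of the 62 members classed by a tRNA gene in KO and 71.0% (58.0 to 81.8) in WT. Over all members the shares were 53.4% in KO and 50.7% in WT, and over all distal regions 10.4% and 9.01%. Members outside protein-coding genes with no annotation nearby also had high shares, at 67.6% in KO and 65.0% in WT. Genes of tRNA have near-identical copies that can share reads. Rn7sk, a small RNA that restrains RNA polymerase II elongation and is also made by RNA polymerase III, had 940 bp in KO and 675 bp in WT.

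MicroRNA genes overlapped members at 2 places. The mature microRNAs are printed from RefSeq, with the seed (bases 2 to 8) in capitals, because the pair made at the first place shares one seed.
mmu-miR-212-3p: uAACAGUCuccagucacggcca
mmu-miR-132-3p: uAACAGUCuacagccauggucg
mmu-miR-713: uGCACUGAaggcacacagc

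Mir212 and Mir132 overlap a member at chr11:75172946-75173731, where H3K4me3 measured 714 bp in KO and 242 bp in WT, H3K27ac 357 bp in KO and 825 bp in WT and H3K27me3 1501 bp in KO and 787 bp in WT. The plus strand encodes miR-212-3p at chr11:75173443-75173464 and miR-132-3p at chr11:75173723-75173744, in the annotation of GRCm38.p6. Mir713, at chr13:62760807-62760825 on the plus strand, overlapped a member with H3K4me3 of 508 bp in KO and 502 bp in WT. Of 57 microRNA genes listed for endothelium, 3 lay within 1000 bp of a member, against 1.5% of all microRNA genes, the third being Mir210, a microRNA induced by hypoxia, with H3K4me3 of 700 bp in KO and 404 bp in WT within 1000 bp of the gene.

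Outside protein-coding genes, the member with the widest H3K4me3 apart from the ribosomal and tRNA copies lay at chr15:85670858-85671358, 63552 bp from the nearest gene end, that of Ppara. H3K4me3 there measured 2126 bp in KO and 1954 bp in WT, and H3K27ac 2481 bp in KO and 1860 bp in WT. Inside genes, the widest peaks that stayed over 1000 bp from gene ends were at Jcad, Rai14 and Axin2. Jcad, a junction protein of endothelial cells, had 2445 bp in KO and 2160 bp in WT. Rai14, an actin-binding protein gene, had 2315 bp in KO and 2318 bp in WT, and Axin2 had 2272 bp in KO and 2227 bp in WT. The KO over WT ratios of these 3 were 1.13, 0.999 and 1.02.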

How the data were processed

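The authors deposited 8 peak lists, 1 per mark and genotype, which per the file headers give chromosome, start, end and width. These deposited values (bp, unit class other) were used unchanged. The lists give no score, height or p per peak. The submitters' processing notes name MACS2 2.1.2.1, Bowtie2 2.2.6, Trim Galore 0.4.4, deepTools 3.1.1, cutadapt 1.14 and SAMtools, and the builds R64 (yeast, a spike-in) and mm10. The sources used here state neither their roles nor the peak threshold nor how samples were pooled. The 8 lists held 313065 peaks on chromosomes 1 to 19. Depth per sample is unknown.

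Overlaps, distances and exact binomial intervals at 95% were computed with scipy 1.17.1, pandas 2.3.3 and numpy 2.4.6 in Python 3.11.15, and figures were drawn with matplotlib 3.10.9. The overlap, merging and distance steps were tested on simulated peaks. Genes were those of RefSeq for GRCm38.p6 (20665 protein-coding genes), and starts and sequences came from RefSeq's promoter and microRNA tables. A mark's width at a member is that of its widest overlapping peak, which can extend beyond the member, and the KO over WT ratio uses the summed width of all overlapping peaks. The members and the 16 gene lists were chosen with earlier results of these data known.

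Members were ranked by the mean of their KO and WT width of H3K4me3. Named were the 10 widest inside protein-coding genes and the 5 widest outside, the 10 widest at a named noncoding gene, the 5 widest without H3K27ac, the 5 with the widest H3K27me3, the 5 with the highest and 5 with the lowest KO over WT ratio, up to 8 genes a list, microRNA genes, and the 3 regions on each side of the distance threshold. Annotation classes and quintiles were chosen after seeing the data, and a few regions named by the rule are left out here. Alternatives changed peak width limits, list length, gene-end distance, overlap, merging and the gene set.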

Additional observations from a re-analysis of the deposited data

How the results depend on the processing

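With 1 list per group, no replicate could be left out. No paired analysis was possible because no value per sample entered. Of 80 values under 9 alternatives, 56 stayed within the interval of the reported value, or within 1.5 times the number of members, and 24 did not. Over 5000 bp from gene ends there were 1751 members, and with H3K4me3 peaks of at least 500 bp 1256. That width limit gave H3K27ac at 95.6% in KO and 96.2% in WT, H3K27me3 at 56.3% in KO and 55.3% in WT, width ratios of 1.12 for H3K4me3 and 1.005 for H3K4me1, 80.25% inside genes and 23.8% near noncoding genes. Equal numbers of the widest peaks gave H3K27ac at 93.5% in WT, H3K27me3 at 44.5% in KO and 53.5% in WT, and an H3K4me3 ratio of 1.29, and this alternative turned the order of the genotypes for H3K27ac and H3K27me3. Leaving out peaks under 200 bp gave an H3K4me3 ratio of 1.22. Over 2000 bp from gene ends, H3K27ac was at 95.2% in KO and 96.1% in WT with 65.7% inside genes, and over 5000 bp at 96.0% in KO and 96.5% in WT with 61.3% inside genes. Leaving out regions near an end of any gene gave 76.6% inside protein-coding genes. Leaving out members whose H3K4me3 came within 1000 bp of a gene end, chosen after seeing the data, gave H3K27ac at 95.6% in WT and 68.2% inside genes. Apart from the changes that the alternatives make by construction, the causes were not tested. Without depth, a peak missing from a list cannot be told from a weak one.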

Other observations

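The share of distal regions that were members ran from 4.38% on chromosome 12 to 7.66% on chromosome 7. Neighbouring members were a median of 296426 bp apart, and 150 of 2818 gaps were at most 1000 bp. The gene with the most members was Nfia, a nuclear factor I gene of 540811 bp, with 8, followed by Frmd4a, Maml3, Dlc1 and Mast4 with 5 each. Maml3 encodes a coactivator of Notch. In Dlc1 the H3K4me3 widths of the 5 members ran from 161 to 682 bp in KO and from 179 to 1568 bp in WT.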
